A study of Mus musculus with 21 samples.

Results

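The tissue effect of a gene, meaning the log2 ratio of its thymic to its splenic level, was compared between both conventional dendritic cell subsets, cDC2 and cDC1, in immature cells sorted from C57BL/6 mice. The members were 14 of the 20 samples of the series (15 of 21 libraries), that is, every immature splenic and thymic library. They were chosen by their labels, and the tissue effect in cDC2 minus the tissue effect in cDC1 was computed for 14045 genes.

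Conventional dendritic cells take up, process and present antigen to T cells. The cDC1 lineage depends on Irf8 and Batf3 and is known for cross-presentation to CD8 T cells, whereas the cDC2 lineage depends largely on Irf4 and presents to CD4 T cells. In the thymus both subsets display self antigens to developing thymocytes, which takes part in deletion and in regulatory T cell selection, and in the spleen cDC2 mature under Notch signals. The question asked of these libraries was which genes differ between thymus and spleen in only 1 subset, or are higher in the thymus in 1 subset and lower in the other.

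All mice were C57BL/6 animals of 6 to 8 weeks, and thymuses or spleens were pooled before enzymatic digestion and CD11c magnetic enrichment. The cDC1 gate was CD11c+ CD24+ and CD11b-, without B220, F4/80, Ly6g, Ly6c or DX5, and the cDC2 gate was B220- CD24- CD11b+ CD11c+, for which the labels name no F4/80 or Ly6c exclusion. Immature cells were CCR7- and Esam- in both tissues, so the Notch-dependent Esam+ cells of the spleen are outside these samples, and Esam, Ccr7, Cd24a and Itgam, which code for gate proteins, are no finding between the groups. The groups were splenic cDC1 (4 samples from 5 libraries), thymic cDC1 (4 samples), splenic cDC2 (3 samples) and thymic cDC2 (3 samples). Mature thymic cDC1 and cDC2 (CCR7+ Esam+, 3 libraries each) took no part in the choice of genes and served as a separate readout. Because bulk RNA was measured, fewer cells of a type and less RNA per cell cannot be told apart.

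Depth was 14266867 to 35509965 reads assigned to genes per immature library. Splenic cDC1 replicates 4 and 5 carry the same library number, index and lane, and a chi-square of their counts per degree of freedom was 2.53, against 22.3 to 190 in the other 21 pairs of libraries within the immature groups. They were therefore summed and counted as 1 sample. Splenic cDC1 replicate 1 carries the same library number in another lane and was kept apart. Thymic cDC1 replicates 3 and 4, which also share a number, were kept apart too. Splenic cDC1 replicate 3 and splenic cDC2 replicate 2 stood apart from their groups, with chi-square values of 108 to 190 in their pairs and 22.3 to 100 in the rest, so counts are given with and without both libraries. They are not the only ones that deviate. On the log2 scale of the test, the root mean square deviation from the group mean was largest in thymic cDC1 replicate 4 (0.595). It was 0.544 in splenic cDC1 replicate 3 and 0.513 in splenic cDC2 replicate 2. Mitochondrial transcripts took 0.844 to 2.22% of the reads of the 14 samples. The defining markers followed the sorted identities. Xcr1, a chemokine receptor of cDC1, reached 8385 to 20744 normalized read counts in the cDC1 samples and 26.1 to 364 in the cDC2 samples, and Sirpa, a cDC2 surface receptor, 173 to 1548 against 13773 to 28215.

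The tissue effect differed between the subsets at 976 genes. At 641 of them the tissue effect was more positive in cDC2 and at 335 it was more positive in cDC1. These are 6.95%, 4.56% and 2.39% of the genes tested, by limma's moderated test (difference above 1 on the log2 scale, p below 0.1 after Benjamini-Hochberg adjustment). The tissue effect alone passed the same criteria at 2242 genes in cDC2 (16.0%; 9.09% higher and 6.87% lower in the thymus) and at 1452 genes in cDC1 (10.3%; 4.86% higher and 5.48% lower). The median difference over all tested genes was 0.02. Without the pair of libraries that stood apart the count was 1715 (12.2%), 909 positive and 806 negative, and it included 887 of the 976 genes.

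The 976 genes fell into classes by the subset in which the tissue effect itself was called. In 500 genes it was called in cDC2 only, 335 of them higher and 165 lower in the thymus, and in 178 genes it was called in cDC1 only, 67 higher and 111 lower. In 61 genes it was called in both with opposite signs, 47 of them higher in cDC2 and lower in cDC1. A further 137 genes moved the same way in both subsets but by different amounts, and in 100 neither effect was called alone. Thymic and splenic samples did not overlap for 498 of the 500 cDC2-only genes in cDC2 and for 172 of the 178 cDC1-only genes in cDC1, where 40.5% and 18.6% of all tested genes were so separated. As the same samples chose these genes, nothing follows from that. A missed call in the other subset does not show that nothing changed there. The 95% interval of the effect in the other subset lay within 2-fold for 226 of the 500 cDC2-only genes and for 45 of the 178 cDC1-only genes. Without both libraries that stood apart the counts were 824 cDC2 only, 282 cDC1 only and 63 opposite.

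**Figure D1:**
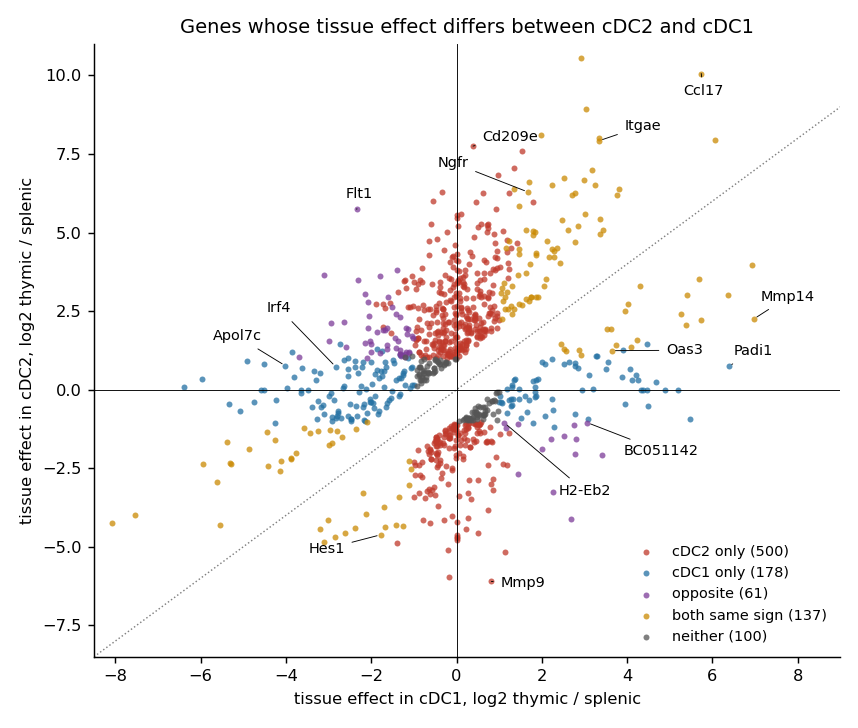
Each point is 1 of the 976 genes whose tissue effect differed, with its log2 thymic to splenic ratio in cDC1 on the x axis and in cDC2 on the y axis, coloured by class, and the dotted line marks equal effects. The 61 opposite genes fill the upper left and lower right, and Flt1 and Cd209e lie far above the line while Padi1 and Mmp14 lie far below it.

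Genes with opposite tissue effects come first, since each of them was called in both subsets. Flt1, a receptor for vascular endothelial growth factor, had 1269, 1168, 973 and 977 normalized read counts (reads divided by the library's size factor) in the splenic cDC1 samples and 236, 212, 151 and 280 in thymic cDC1. In cDC2 it had 56.7, 23.7 and 78.2 counts in the spleen and 2979, 2254 and 2565 in the thymus. The genes named in each class were chosen for tissues that do not overlap in the subset called, and opposite signs define the class, so the separation of thymic from splenic samples here and below describes the choice and is no evidence. On the log2(value + 1) scale, on which all fitted effects below are given, the tissue effect was -2.34 ± 0.29 (SE) in cDC1 and 5.74 ± 0.33 in cDC2, a difference of 8.08 ± 0.44 (adjusted p = 3.2e-08, limma). This was the largest difference among the 61 opposite genes.

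Cyp7b1, an oxysterol hydroxylase that takes part in making the ligand of the migration receptor Gpr183, had 58.8 to 83.1 counts in splenic and 15 to 33.8 in thymic cDC1, against 31.0 to 61.2 in splenic and 399 to 734 in thymic cDC2. Its difference was 5.42 ± 0.47 (adjusted p = 3.1e-06, limma). Ccr1, a receptor for inflammatory CC chemokines, had 54.6, 53.3, 56.3 and 46.9 counts in splenic and 10.1, 8.33, 9.36 and 23.2 in thymic cDC1, and 138, 123 and 88.0 in splenic and 733, 915 and 760 in thymic cDC2. Ccr1 was thus higher in cDC2 than in cDC1 in both tissues, and the difference of tissue effects was 4.87 ± 0.44 (adjusted p = 5.2e-06, limma). The receptor genes Cd33, a sialic acid-binding lectin, and Cd200r1, the receptor of Cd200, followed the same pattern. Cd33 fell from 129 to 188 counts to 34.3 to 98 in cDC1 and rose from 766 to 994 counts to 3843 to 5232 in cDC2, and Cd200r1 fell from 201 to 294 to 45.3 to 91.2 in cDC1 and rose from 246 to 517 to 972 to 1518 in cDC2. Their differences were 3.85 ± 0.39 and 3.69 ± 0.40.

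Psd3, Fndc5 and Mrvi1 completed the named genes that fell in thymic cDC1 and rose in thymic cDC2, with differences of 4.74 ± 0.46, 4.56 ± 0.43 and 4.40 ± 0.58. Psd3, an exchange factor for ARF6, changed mostly in cDC1, from 185 to 271 counts in the spleen to 10.9 to 30.4 in the thymus, against 43.9 to 66.9 and 98.1 to 135 in cDC2. Fndc5, the precursor of irisin, stood at 8.15 to 11.2 counts in splenic and 54.9 to 121 in thymic cDC2 against 402 to 722 and 115 to 204 in cDC1. Psd3 and Mrvi1 share exon bases with an antisense gene. Other genes named here share them with a gene of the other strand, such as Zfp532, BC051142, Padi1, S1pr5, Mfsd4, Cxcl10 and Zeb2.

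Fewer genes went the other way. H2-Eb2, a class II beta chain of limited expression, had 444, 344, 405 and 328 counts in splenic and 799, 842, 738 and 910 in thymic cDC1, and 3195, 2843 and 3080 counts in splenic and 1306, 1553 and 1555 in thymic cDC2. All thymic cDC1 samples lay above and all thymic cDC2 samples below their splenic counterparts, and the difference was -2.17 ± 0.20 (adjusted p = 5.4e-06, limma). It was the only one of the 17 class II presentation genes tested with a difference of tissue effects, where 6.95% of all genes had one. Hap1, a huntingtin-associated trafficking protein, stood at 314 to 538 counts in splenic and 1010 to 1106 in thymic cDC1, but at 1882 to 3120 in splenic and 950 to 1143 in thymic cDC2. Hap1 levels in thymic cDC1 and thymic cDC2 therefore overlapped where the splenic levels did not. BC051142 had a difference of -4.12 ± 0.36, Zfp532 of -3.89 ± 0.55 and Sspo of -3.88 ± 0.63, and Mfsd2a, a lysophospholipid transporter, of -2.38 ± 0.49. Fabp4, a fatty acid-binding protein, had at most 1.15 counts in splenic cDC1 and 3.38 to 14.2 in thymic cDC1, so its change in cDC1 rests on few reads. In cDC2 Fabp4 fell from 69.3 to 177 counts to 4.27 to 23.4.

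**Figure D2:**
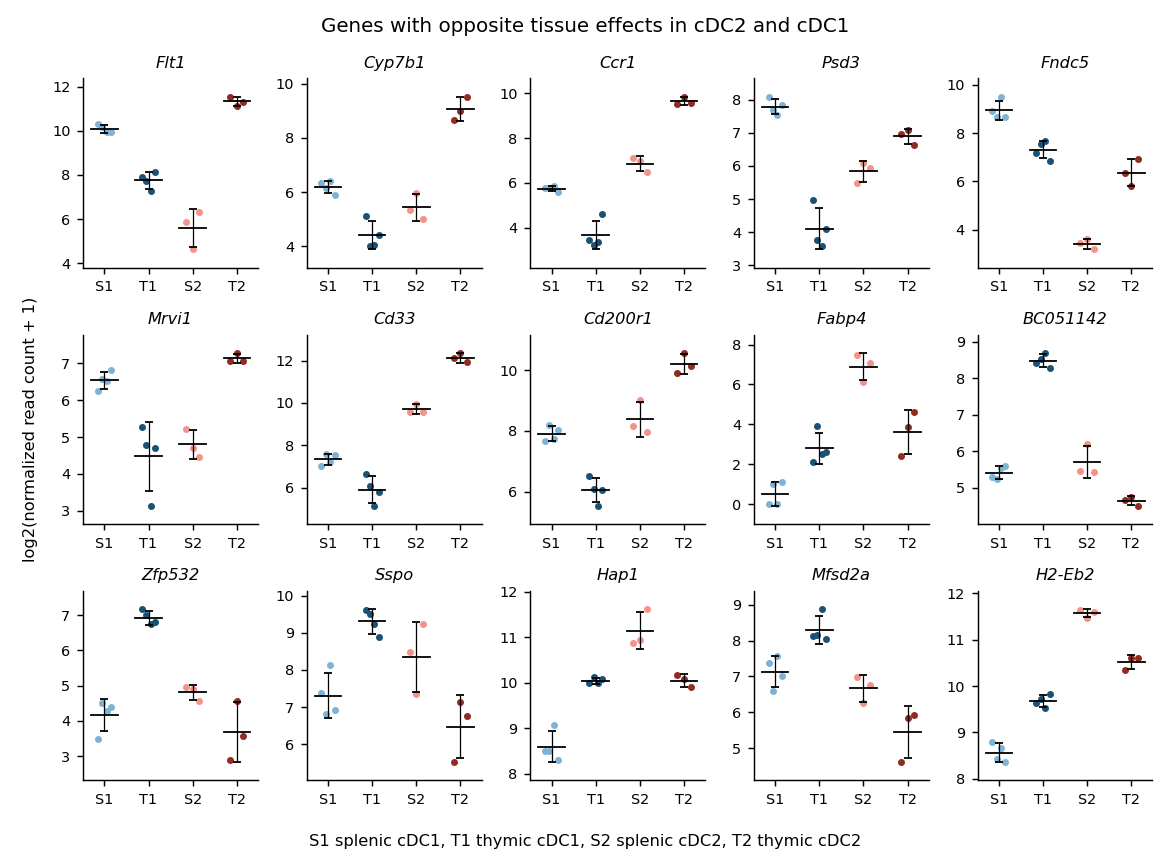
For the 15 named genes with opposite tissue effects, each dot is 1 sample on the log2(normalized read count + 1) axis, and bars give the mean and SD of each group. In the 8 genes from Flt1 to Cd200r1 the thymic cDC1 dots lie below the splenic ones and the thymic cDC2 dots above them, and in the 7 from Fabp4 to H2-Eb2 the order is the reverse.

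Genes raised in cDC2 only were led by lectins, a phosphatase and secreted proteins. Cd209e, a lectin of the DC-SIGN family, had 34.8, 31.9 and 8.15 counts in splenic cDC2 and 4017, 5354 and 5000 in thymic cDC2, against 65.3 to 87.8 in splenic and 68.7 to 122 in thymic cDC1. The cDC1 samples of both tissues overlapped and the cDC2 samples did not. The effect was 7.75 ± 0.40 in cDC2 and 0.39 ± 0.35 in cDC1, a difference of 7.36 ± 0.53 (adjusted p = 4.9e-07, limma). Its neighbour Cd209d had 200, 75 and 104 counts in splenic and 3936, 4091 and 5634 in thymic cDC2, a difference of 5.87 ± 0.73. The genes lie side by side on chromosome 8 (mm10, chr8:3847965-3854309 and chr8:3871824-3878555, minus strand) and are similar in sequence, so reads may be divided unevenly between them.

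The eosinophil chemokine Ccl24 had 1.83, 0 and 1.63 counts in splenic cDC2 and 128, 104 and 140 in thymic cDC2, and at most 1.97 counts in any cDC1 sample. Retnla, a secreted resistin-like protein, had no read in any splenic sample of either subset, 278, 93.7 and 54.5 counts in thymic cDC2, and at most 3.12 in thymic cDC1. In cDC2 it was thus at least 44.8-fold higher in the thymus, counted against a floor of 3 reads per splenic library. Susd4, a complement regulator, also had no read in splenic cDC2 and 159, 177 and 254 counts in thymic cDC2, at least 62.1-fold higher by the same floor. The difference was not called for Retnla by edgeR (adjusted p = 1.0), nor for Susd4 by edgeR (adjusted p = 0.38) or DESeq2 (adjusted p = 0.226). The receptor phosphatase Ptprf rose from 3.75 to 11.4 counts in splenic to 508 to 640 in thymic cDC2, while cDC1 held 39.1 to 120 and 38.4 to 49.8.

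Of the genes lowered in cDC2 only, Mmp9, Gzma, Fat2 and S1pr5 were nearly missing outside splenic cDC2. Mmp9, a gelatinase, had 201, 171 and 248 counts in splenic cDC2, and 0, 2.68 and 6.23 in thymic cDC2, and at most 8.33 in any cDC1 sample. The difference was -6.92 ± 1.12 (adjusted p = 0.001, limma). S1pr5, a sphingosine 1-phosphate receptor that guides exit from tissue in NK cells and monocytes, had 238, 39.4 and 143 counts in splenic cDC2 and 8.54, 2.68 and 0 in thymic cDC2. The S1pr5 difference of -4.89 ± 1.07 was not called by edgeR (adjusted p = 0.971), by DESeq2 (adjusted p = 0.358) or with a pseudocount of 0.1 (adjusted p = 0.191, limma). Fat2, an atypical cadherin, went from 121 to 226 counts to 0 to 6.40, Cdhr3 from 109 to 137 to 4.27 to 12.5, and the POU factor Pou6f1 from 94.3 to 145 to 6.40 to 21.4. Fat2 was not called by edgeR (adjusted p = 0.13), nor Cdhr3 with a pseudocount of 0.1 (adjusted p = 0.404, limma). Gzma, a granzyme of cytotoxic lymphocytes, went from 66.9 to 165 to 0 to 7.47. Of the NK and innate lymphoid marker list, 2 of 5 tested genes (Gzma and Gzmb) had a negative difference, where 2.39% of all genes did. The summed level of the list was 2865 to 4686 counts in splenic and 1844 to 2516 in thymic cDC2. The defining markers Ncr1 and Klrb1c stood at 3.66 to 31.2 and 3.26 to 15.6 counts in splenic cDC2, and at 0 and 0 to 3.35 in thymic cDC2. The part of such cells in these values was not tested.

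The genes higher in the thymus in cDC1 only were led by Btnl4, Padi1 and Dok3. Padi1, a peptidylarginine deiminase, had 5.15, 1.97, 9.24 and 1.54 counts in splenic cDC1, 419, 416, 325 and 399 in thymic cDC1, and at most 1.63 in any cDC2 sample. The effect was 6.38 ± 0.49 in cDC1 and 0.74 ± 0.56 in cDC2, a difference of -5.64 ± 0.74 (adjusted p = 0.00019, limma), which edgeR did not call (-4.80, adjusted p = 0.337). Btnl4, a butyrophilin-like protein, went from 0 to 9.86 counts in splenic to 153 to 248 in thymic cDC1 and stayed at or below 5.62 in cDC2. Dok3, an adaptor that dampens immunoreceptor signals, showed another pattern, with 3.84 to 20.3 counts in splenic and 172 to 222 in thymic cDC1 against 88.1 to 422 and 151 to 177 in cDC2. Thymic cDC1 thus reached the range of Dok3 levels that cDC2 held in both tissues. The kinase Cdc42bpg rose from 133 to 333 to 1375 to 1763 counts and the semaphorin Sema4b from 28.4 to 70.2 to 386 to 592 in cDC1. Mfsd4 rose from 0.986 to 8.24 to 89.9 to 122 in cDC1, but its splenic cDC2 samples held no read, and the sign of its difference (-3.0 ± 0.88 by limma) turned in edgeR's quasi-likelihood test (0.06, adjusted p = 0.82).

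The genes lowered in cDC1 only included some that were low in cDC2 of both tissues and some that were as high there or higher. Apol7c, an apolipoprotein L family gene, had 6337, 7062, 5638 and 6736 counts in splenic cDC1 and 384, 378, 367 and 462 in thymic cDC1, against 355, 354 and 324 in splenic and 470, 603 and 706 in thymic cDC2. Splenic cDC1 alone stood out among the immature groups. The effect was -4.02 ± 0.14 in cDC1 and 0.76 ± 0.16 in cDC2, a difference of 4.78 ± 0.22 (adjusted p = 3.1e-09, limma). Gm8221, annotated as an unprocessed pseudogene in the same stretch of chromosome 15 (chr15:77621834-77626637, with Apol7c at chr15:77524852-77533316), went from 4151 to 4858 counts to 169 to 247 in cDC1. If it is a near copy of Apol7c, the reads of both are uncertain. Gpr116 went from 148 to 226 counts to 0 to 5.0 and the proprotein convertase Pcsk5 from 209 to 341 to 1.56 to 9.16, and in both genes no cDC2 sample exceeded 3.75 counts. Pcsk5 was not called by edgeR (adjusted p = 0.119). Aldh1a2, the retinal dehydrogenase that makes retinoic acid, had 51.5, 30.6, 70.2 and 36.9 counts in splenic and 1.69, 0, 0 and 1.01 in thymic cDC1, while cDC2 held 51.2 to 78.2 in the spleen and 91.9 to 124 in the thymus. Its difference was 5.81 ± 0.61 (adjusted p = 2.3e-05, limma). Gm16553, annotated antisense to Clec4g, fell from 30.9 to 95.7 to 0 to 3.03 counts in cDC1.

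**Figure D3:**
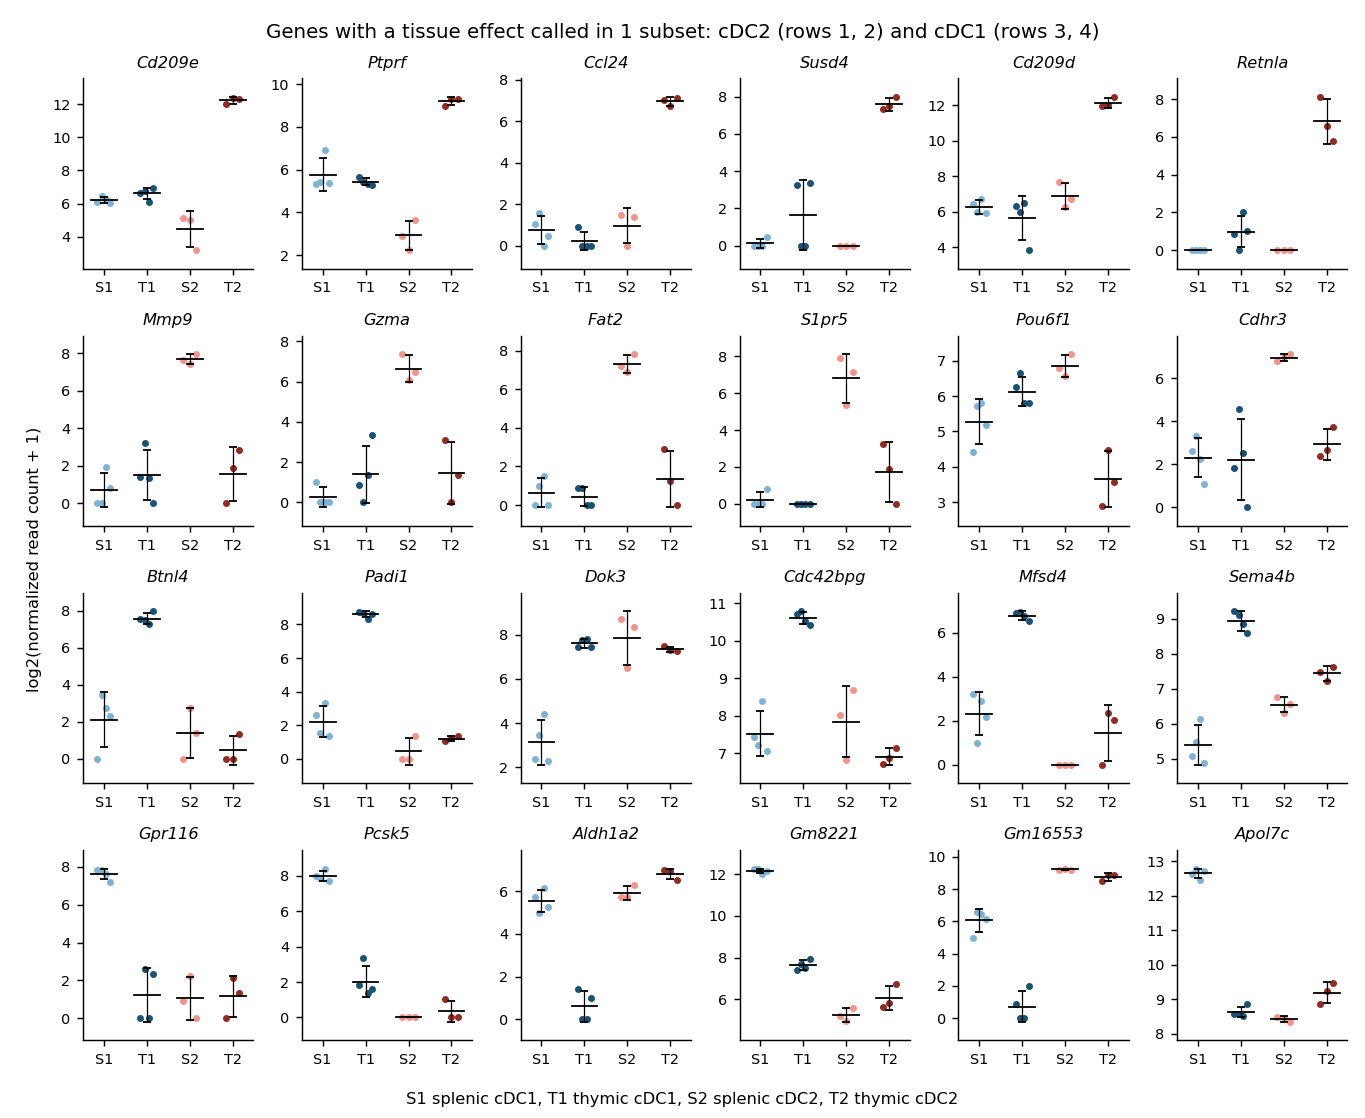
Each dot is 1 sample on the log2(normalized read count + 1) axis, with group means and SDs, for the 24 named genes whose tissue effect was called in 1 subset. In the upper 12 genes, Cd209e to Cdhr3, the cDC2 groups separate by tissue, and in the lower 12, Btnl4 to Apol7c, the cDC1 groups do.

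Of 36 lineage transcription factors tested, 7 had a positive and 4 a negative difference, where 4.56% and 2.39% of all genes did, with a median difference of 0.05 over the list and 0.02 over all genes. Irf4, on which cDC2 depend, had 1410, 1174, 1412 and 993 counts in splenic and 272, 206, 78.0 and 199 in thymic cDC1, and 5439 to 6001 in splenic and 8542 to 10832 in thymic cDC2. It fell in cDC1 by 2.84 on the log2 scale and its effect in cDC2 was 0.73 ± 0.32, below the threshold, a difference of 3.57 ± 0.42 (adjusted p = 7e-05, limma). Zeb2, a repressor needed for cDC2 and plasmacytoid cells, and Spib, an ETS factor, were also lowered in cDC1 only, Zeb2 from 273 to 362 counts to 14 to 91.2 and Spib from 238 to 631 to 32.8 to 94.6. The Zeb2 difference lost its call without splenic cDC2 replicate 1 or 3, or without thymic cDC2 replicate 1 or 2 (adjusted p = 0.11 to 0.135, limma). In cDC2 only, Tcf4, the E protein of plasmacytoid cells, rose from 2091 to 3106 to 5606 to 6202, while Ikzf3 fell from 171 to 369 to 32.0 to 54.5, a difference not called with a pseudocount of 0.1 (adjusted p = 0.116, limma). Klf2, a quiescence factor, fell in cDC2 from 5698, 1654 and 6200 to 1017, 1593 and 1125, where splenic replicate 2, one of the libraries that stood apart, lies next to the thymic values. Without both libraries the list gave 6 positive and 10 negative differences.

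Genes known to respond to type 2 cytokines had positive differences only, where they were called. Of 26 tested, 9 had a positive and none a negative difference, where 4.56% and 2.39% of all genes did. Of the 9, 6 were called in cDC2 only. Ccl17, a ligand of Ccr4, had 6.18, 0.986, 0.924 and 8.07 counts in splenic and 186, 214, 312 and 159 in thymic cDC1, and 11.0, 0 and 11.4 in splenic and 5196, 5284 and 6586 in thymic cDC2. It rose in both subsets, and the rise was larger in cDC2 by 4.32 ± 1.06 (adjusted p = 0.02, limma), a call lost with a pseudocount of 0.1 (adjusted p = 0.145). The lipoxygenase Alox15 rose in cDC2 only, from 0 to 9.37 to 227 to 405 counts, and so did Mrc1, the mannose receptor, from 196 to 242 to 1944 to 2582. Mgl2 and Clec10a, galactose-binding lectins of the same list, rose in both subsets and their differences of 0.62 ± 0.62 and 0.06 ± 0.39 passed no threshold. Ccl22, another Ccr4 ligand, rose in both subsets and more in cDC2, from 117 to 323 counts to 13088 to 19670 there. It is also on the list of mature cDC markers, whose summed level is given below. Ccl24, Retnla, Cd209e and Cd209d, described above, and Cd209a, which fell in cDC1 only, made up the rest of the 9. The median difference of the list was 0.88, and without both libraries that stood apart it gave 10 positive and 3 negative differences.

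The letters TTC and GAA with any 4 bases between them, a palindrome of the kind STAT6 binds, which reads alike on both strands, were searched in the 250 bases before the start of each gene (RefSeq, GRCm38.p6). They occur in the windows of 6.76% of 27025 genes and in 5 of the 21 genes of the type 2 list with a window. Of the 7 listed genes with a positive difference and a window, 3 hold the letters, and these windows are shown, 5′ to 3′ on the gene's strand, with the match in capitals. They lie at chr8:94810203-94810452 (plus strand) for Ccl17, chr16:48842359-48842608 (plus) for Retnla and chr8:3854287-3854536 (minus) for Cd209e, and the match begins at positions -154, -145 and -79 counted from the start.
Ccl17: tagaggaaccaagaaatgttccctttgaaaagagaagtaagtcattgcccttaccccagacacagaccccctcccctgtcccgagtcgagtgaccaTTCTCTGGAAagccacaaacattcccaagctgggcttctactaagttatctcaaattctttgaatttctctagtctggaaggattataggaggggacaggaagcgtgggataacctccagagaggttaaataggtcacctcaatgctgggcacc
Retnla: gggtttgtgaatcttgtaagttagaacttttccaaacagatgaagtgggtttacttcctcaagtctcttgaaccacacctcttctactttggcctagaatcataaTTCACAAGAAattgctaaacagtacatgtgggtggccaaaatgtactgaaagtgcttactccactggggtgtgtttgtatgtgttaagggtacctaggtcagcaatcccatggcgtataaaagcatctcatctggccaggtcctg
Cd209e: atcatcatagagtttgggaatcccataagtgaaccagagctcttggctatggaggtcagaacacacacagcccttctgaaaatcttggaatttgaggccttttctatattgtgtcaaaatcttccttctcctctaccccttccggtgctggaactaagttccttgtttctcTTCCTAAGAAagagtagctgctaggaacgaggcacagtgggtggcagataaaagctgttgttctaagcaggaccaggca

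A match of these letters is a description of the sequence and not a site of binding.

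Interferon-stimulated genes, which encode antiviral effectors, were called higher in the thymus for 27 of 38 tested in cDC1 and 25 in cDC2, where 4.86% and 9.09% of all genes were. Of the 38, 5 had a positive and 8 a negative difference, with a median of -0.33, where 4.56% and 2.39% of all genes had one. Oas1a, which makes the activator of RNase L, had 53.5, 95.7, 146 and 99.1 counts in splenic and 1129, 1332, 1579 and 1041 in thymic cDC1, and 1609, 1026 and 1613 in splenic and 2995, 4168 and 4206 in thymic cDC2. It rose in both and by more in cDC1, a difference of -2.31 ± 0.39 (adjusted p = 0.0015, limma). Its relative Oas3 had a difference of -2.40 ± 0.29 and Oas2 of -2.01 ± 0.39. In the other direction, Ifi205, an interferon-inducible PYHIN protein, rose in cDC2 only, from 189, 141 and 97.8 to 1423, 2368 and 2139 counts. The chemokine Cxcl10 also rose in cDC2 only, from 292 to 475 to 949 to 1299 counts. The GTPase Gbp2 fell in cDC1 only, from 229 to 273 to 43.9 to 126.

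The core of the interferon response element, taken as GAAA, any 2 bases and GAAA, was searched on both strands of the same windows and occurs in those of 3.46% of genes. It is in 15 of the 29 listed interferon-stimulated genes with a window, in 4 of the 5 with a positive and in 3 of the 6 with a negative difference and a window. A pair of genes from each direction is shown with the match in capitals, Oas1a (chr5:120907526-120907775) and Oas3 (chr5:120777660-120777909) with a negative and Ifi205 (chr1:174031756-174032005) and Cxcl10 (chr5:92348890-92349139) with a positive difference, all on the minus strand. Oas1a holds 2 overlapping matches, beginning at -20 and -14, and 1 match of the letters searched above (TTC, any 4 bases, GAA) overlaps them.
Oas1a: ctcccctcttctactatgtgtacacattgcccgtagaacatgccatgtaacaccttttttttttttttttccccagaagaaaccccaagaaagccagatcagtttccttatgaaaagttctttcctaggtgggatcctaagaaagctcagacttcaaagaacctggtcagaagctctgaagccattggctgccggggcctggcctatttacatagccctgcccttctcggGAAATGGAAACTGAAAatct
Oas3: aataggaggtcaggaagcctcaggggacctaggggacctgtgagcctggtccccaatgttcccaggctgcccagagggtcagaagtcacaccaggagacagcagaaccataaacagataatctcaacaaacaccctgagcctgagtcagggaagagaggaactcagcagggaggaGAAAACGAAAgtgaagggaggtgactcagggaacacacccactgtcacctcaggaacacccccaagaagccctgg
Ifi205: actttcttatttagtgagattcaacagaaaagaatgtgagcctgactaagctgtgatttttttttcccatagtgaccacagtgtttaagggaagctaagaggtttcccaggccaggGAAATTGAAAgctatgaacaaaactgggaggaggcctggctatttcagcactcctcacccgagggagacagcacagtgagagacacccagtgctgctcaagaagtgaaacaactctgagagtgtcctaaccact
Cxcl10: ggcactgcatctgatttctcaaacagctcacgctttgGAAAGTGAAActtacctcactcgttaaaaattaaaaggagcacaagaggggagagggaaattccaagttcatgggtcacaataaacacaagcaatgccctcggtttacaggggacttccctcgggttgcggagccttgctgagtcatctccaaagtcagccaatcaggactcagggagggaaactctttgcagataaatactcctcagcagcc

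Chemokines and their receptors were called often. Of 21 ligands tested, 10 had a positive and 2 a negative difference, where 4.56% and 2.39% of all genes did. Of these 12 ligands, 8 were called in cDC2 only. Besides Ccl17, Ccl22 and Ccl24, Cx3cl1, the membrane-bound ligand of Cx3cr1, had 16.5, 10.0 and 17.9 counts in splenic and 215, 218 and 229 in thymic cDC2, against 11.3 to 30.5 and 21.2 to 63.3 in cDC1. Of 13 receptors, 6 had a positive and none a negative difference. Cxcr2, a receptor for neutrophil chemokines, had 0, 4.37 and 3.26 counts in splenic and 873, 638 and 855 in thymic cDC2, while thymic cDC1 held 11.0, 9.99, 0 and 8.08. It was called higher in both subsets, with a difference of 6.13 ± 1.14 (adjusted p = 0.0032, limma), a call lost with a pseudocount of 0.1 (adjusted p = 0.175). Ccr2, the receptor that draws monocytes and related cells into tissue, rose in cDC2 only, from 1926 to 2969 to 10539 to 12282 counts. Ccr9 rose in cDC2 only as well, by 2.11 ± 0.22 on the log2 scale, and Cx3cr1 fell in cDC1 only, from 129 to 246 to 20.2 to 32.9 counts. In the fit of all 6 groups the differences of Ccr2 and Cx3cr1 were not called (adjusted p = 0.193 and 0.119, limma). Without both libraries that stood apart the receptors gave 7 positive and 1 negative difference.

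**Figure D4:**
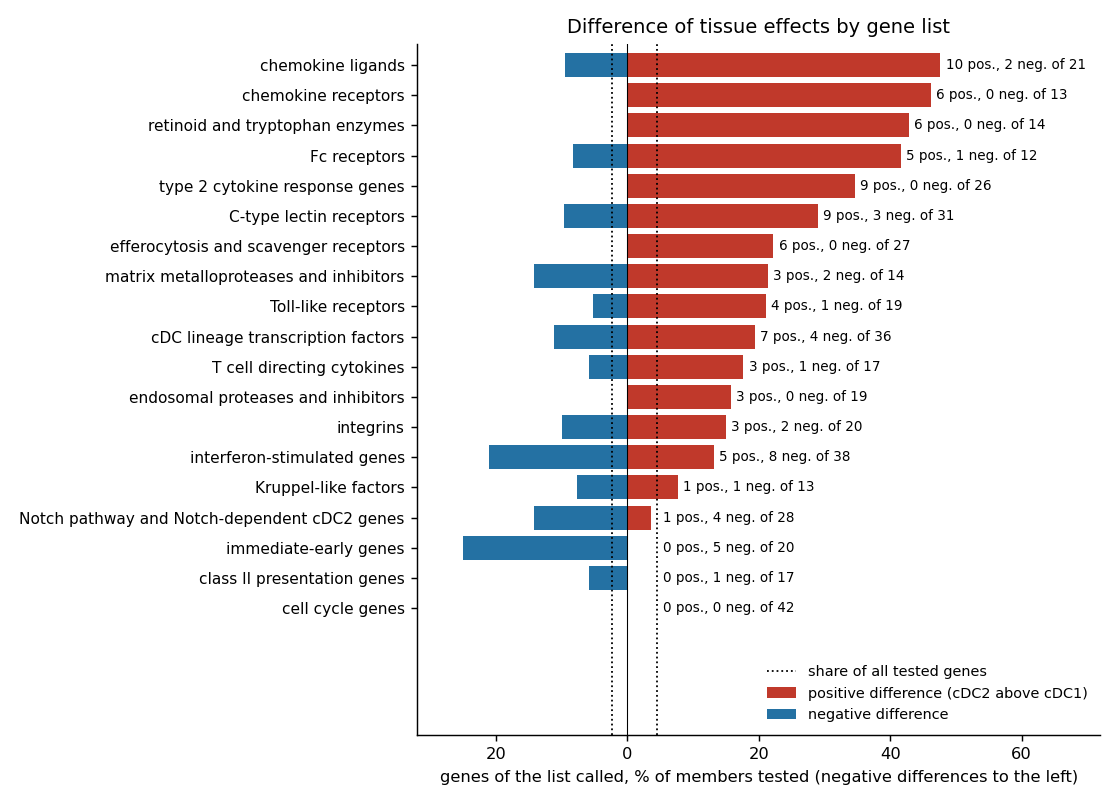
Bars give, for each of the 19 lists with at least 10 tested members, the share of tested members in percent with a positive difference of tissue effects (right) or a negative one (left), with the counts printed beside them, and dotted lines mark 4.56% and 2.39% of all tested genes. Chemokine ligands (10 of 21) and chemokine receptors (6 of 13) reach furthest to the right, and immediate-early genes (0 positive, 5 negative of 20) have no positive difference.

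Ngfr, the low-affinity neurotrophin receptor, rose in both subsets and far more in cDC2. It had 18.3, 7.5 and 9.78 counts in splenic and 817, 830 and 1246 in thymic cDC2, and 13.4, 2.96, 11.1 and 6.92 in splenic and 61.7, 16.7, 21.8 and 21.2 in thymic cDC1. In each subset the tissues did not overlap. The effects were 6.29 ± 0.54 and 1.67 ± 0.47, a difference of 4.62 ± 0.71 (adjusted p = 0.00069, limma). It was the one gene with a difference among 4 neurotrophin-related genes tested, where 6.95% of all genes had one. Itgae, the integrin alpha chain that pairs with beta 7 to bind E-cadherin, showed the same order on a larger scale, with 36.6, 15 and 19.6 counts in splenic and 4697, 5812 and 6455 in thymic cDC2 against 1346 to 1845 and 14959 to 17568 in cDC1. Its difference was 4.58 ± 0.32. Mmp14, a membrane-bound collagenase, went the other way, from 5.76 to 19.4 to 1331 to 1796 counts in cDC1 and from 364 to 666 to 1740 to 3043 in cDC2, a difference of -4.72 ± 0.50.

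Most antigen-processing enzymes tested had no called difference. Prss16, the thymus-specific serine protease, rose by 2.76 ± 0.54 in cDC1 and 2.71 ± 0.62 in cDC2, and its difference of -0.05 ± 0.82 was not called (adjusted p = 0.99, limma). The differences of the cathepsins Ctss, Ctsl, Ctsb and Ctsd lay between -0.34 and 0.74 and that of the legumain gene Lgmn was -0.49, none of them called. Of 19 endosomal proteases and inhibitors, 3 had a positive difference: Serpinb6b (2.72 ± 0.36), the cathepsin inhibitor Cst3 (1.19 ± 0.38) and Ctsa (1.08 ± 0.34). A positive difference was called at 4.56% of all genes. Without both libraries that stood apart, Cst3 and Ctsa were no longer called and 1 of the 19 was.

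Notch pathway and Notch-dependent genes gave 1 positive and 4 negative differences among 28 tested, where 4.56% and 2.39% of all genes had one. Esam, 1 of the 4 negative ones, codes for a gate protein and is no finding, and edgeR did not call it (adjusted p = 0.101). Hes1, a repressor that Notch induces, had 802, 854, 663 and 826 counts in splenic and 198, 272, 161 and 307 in thymic cDC1, and 1512, 1699 and 1445 in splenic and 80.1, 79.7 and 37.4 in thymic cDC2. It fell in both, and the fall was larger in cDC2 (-2.84 ± 0.38, adjusted p = 0.00019, limma). Jag1, a Notch ligand, fell in cDC2 only, from 165 to 237 to 56.1 to 69.6 counts. Dtx1, another target, fell by 4.63 and by 7.34 on the log2 scale, and its difference of -2.71 ± 1.07 was not called. Without both libraries the list gave 0 positive and 8 negative differences, and Dll4, the 1 with a positive difference, was no longer called. Immediate-early genes, which are transcribed within minutes of stimulation, gave no positive and 5 negative differences of 20. Among them Nr4a1 had 89416, 60331 and 128878 counts in splenic and 20241, 18848 and 16907 in thymic cDC2, and 30572, 32670, 65581 and 32721 in splenic and 25432 to 29994 in thymic cDC1. Splenic cDC1 replicate 3, the highest of its group, is one of the libraries that stood apart, and without both the list gave 10 negative differences.

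Retinoid and tryptophan enzymes had 6 positive differences of 14, 4 of them in cDC2 only. Il4i1, an amino acid oxidase, rose in cDC2 from 1276 to 2566 to 5477 to 7302 counts, and Kynu, of the kynurenine pathway, from 1784 to 2778 to 5027 to 5525. Rbp4 and Cyp26b1 were called too, but no sample held more than 59.2 and 17.5 counts of them. Receptors for dying cells and scavenger receptors had 6 positive differences of 27. Timd4, a phosphatidylserine receptor, had 45.8, 56.9 and 53.8 counts in splenic and 531, 898 and 827 in thymic cDC2, against 47.4 to 109 and 60 to 120 in cDC1. Mfge8, which bridges phosphatidylserine to integrins, rose in cDC2 only, from 179 to 318 to 954 to 1642 counts. Of all tested genes 4.56% had a positive and 2.39% a negative difference. C-type lectins gave 9 positive and 3 negative differences of 31, Fc receptors 5 and 1 of 12, Toll-like receptors 4 and 1 of 19, integrins 3 and 2 of 20, metalloproteases and inhibitors 3 and 2 of 14, T cell directing cytokines 3 and 1 of 17, and Kruppel-like factors 1 and 1 of 13. In cell cycle genes no difference was called by limma among 42 tested. For the tissue effect alone, 10 were called higher in thymic cDC1 and 17 in thymic cDC2, where 4.86% and 9.09% of all genes were. None of 3 metallothioneins was called for a difference.

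Markers of other cell types moved with these results, and their counts stand against 4.56% positive and 2.39% negative differences of all genes. Of 20 macrophage markers, 7 had a positive and none a negative difference, and their summed level was 16057 to 26970 counts in splenic and 31245 to 41462 in thymic cDC2, against 3698 to 5752 and 2667 to 3391 in cDC1. C1qa, Csf1r, Fcgr1 and Mertk, which mark macrophages, had no called difference, though C1qa rose in cDC2 from 251 to 444 to 1614 to 2797 counts. Of 12 plasmacytoid markers, 6 had a positive difference, and their sum was 6869 to 8143 counts in splenic and 22590 to 26295 in thymic cDC2, and 6482 to 8857 and 17243 to 23848 in cDC1. The monocyte list gave 6 positive and 2 negative differences of 15, with a sum of 102111 to 173270 counts in splenic and 75367 to 81351 in thymic cDC2. Much of the splenic sum is Nr4a1, an immediate-early gene on that list that fell in cDC2 (above). Ccr2, also on the list, rose there, so the sum does not measure monocyte RNA as a whole. The part of macrophages, plasmacytoid cells and monocytes in the results was not tested.

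Markers of the subsets themselves also moved. Of 15 cDC1 markers, 6 had a positive difference, where 4.56% of all genes had a positive and 2.39% a negative one. The sum of the 15 in cDC2 was 42319 to 62910 counts in the spleen and 75212 to 85226 in the thymus, although Xcr1, Cadm1, Batf3 and Ppt1 were not called. Of 12 cDC2 markers, 5 had a positive difference and all 5 (Sirpa, Irf4, Cd209a, Cd300a and Zeb2) were lower in thymic cDC1 only. The summed level of all 12 in cDC1 was 9669 to 10749 counts in the spleen and 6452 to 6961 in the thymus. Of 17 T lineage markers, 14 were called higher in the thymus in cDC1 and 10 in cDC2, where 4.86% and 9.09% of all genes were. The median effects of the 17 were 2.84 and 1.63 on the log2 scale, and 1 had a positive and 3 a negative difference. Their sum was 189 to 382 counts in splenic and 415 to 526 in thymic cDC1, and 262 to 485 in splenic and 447 to 704 in thymic cDC2. Mature cDC markers gave 5 and 3 of 16, thymic epithelium and stroma 3 and 1 of 9, granulocytes 1 and 1 of 4, B lineage 0 and 1 of 7, and pan-cDC (7) and erythroid (3) markers no call. The summed level of the 16 mature cDC markers, Ccl22 included, was 21911 to 35534 counts in splenic and 39059 to 51874 in thymic cDC2. In cDC1 it was 13619 to 16312 counts in the spleen and 12319 to 18113 in the thymus. What these cells contribute was not tested.

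Mature thymic cells gave a readout from libraries that the choice of genes had not used. Mature cDC1 replicate 1 carries the same number in its library name as immature thymic cDC1 replicates 3 and 4 and thymic cDC2 replicate 3, and the labels do not say what the number marks, so shared mice cannot be told apart from separate ones. Depth was uneven. Mature cDC1 replicates 1 and 2 held 14782647 and 15779540 reads, and 14317 and 14373 genes with reads. The other mature libraries held 34275977 to 40119669 reads and 15992 to 18835 such genes. Mature cDC2 replicate 3 stood apart from its group, with chi-square values of 135 and 155 in its pairs. The part of depth in the shares below was not tested. Mature cDC2 were set against mature cDC1, and 8.22% of the tested genes were called higher in cDC2 and 2.91% in cDC1. Of the 335 genes raised in immature cDC2 only, 96 (28.7%) were higher in mature cDC2 and 31 (9.25%) in mature cDC1. Of the 111 genes lowered in immature cDC1 only, 39 (35.1%) and 2 (1.80%) were, and of the 47 opposite genes raised in cDC2, 17 (36.2%) and 3 (6.38%). The 165 genes lowered in cDC2 only were also more often called than all genes, 25 (15.2%) higher in mature cDC2 and 13 (7.88%) in mature cDC1. The 44 genes lowered in both subsets gave 19 (43.2%) and 2 (4.55%), and the 93 raised in both 20 (21.5%) and 9 (9.68%). The 67 genes raised in cDC1 only gave 6 (8.96%) and 8 (11.9%), and the 14 opposite genes raised in cDC1 gave 2 (14.3%) and 4 (28.6%). Leaving out mature cDC2 replicate 2 lowered these shares higher in cDC2 to 12.5%, 17.1% and 12.8% of the first 3 classes given, against 2.76% of all genes, and leaving out replicate 1 to 14.3%, 18.9% and 19.1%, against 3.33%.

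Single genes fell on both sides of the threshold. Ngfr had no read in mature cDC1 and 31.5, 43.2 and 20.4 counts in mature cDC2. Ccr1 had 0, 1.73 and 0 counts in mature cDC1 and 184, 190 and 51.8 in mature cDC2, a difference of 6.46 (adjusted p = 0.0044, limma). Flt1, the largest opposite gene, had 275, 270 and 194 counts in mature cDC1 and 153, 163 and 84.8 in mature cDC2, with no call. Apol7c stood at 39265 to 53929 and 60180 to 67412 counts, above every immature sample in both subsets. Mature cDC2 replicate 3, which carries the same library number as mature cDC1 replicate 3, was lower than the others for macrophage genes, as in Apoe with 18657, 17151 and 1872 counts.

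**Figure D5:**
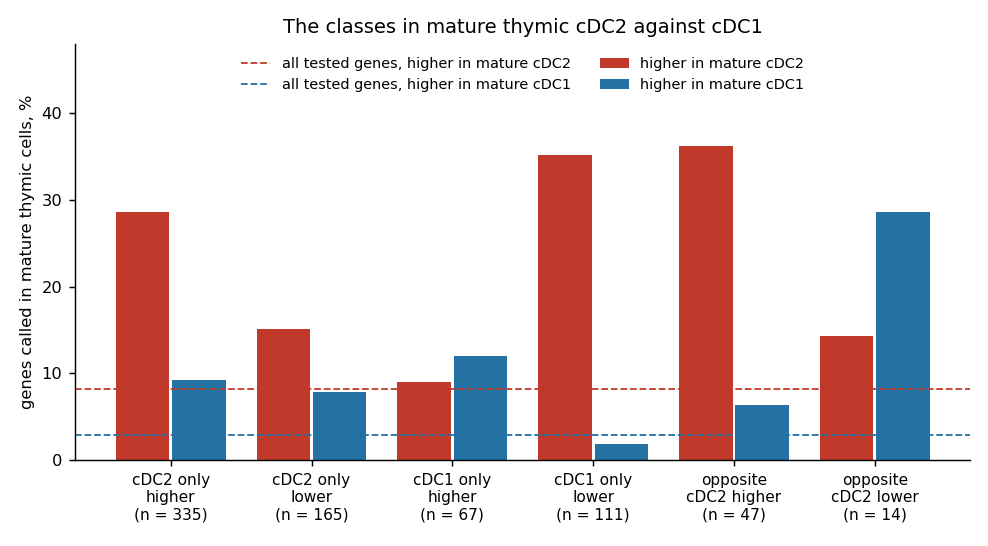
Bars give, for each of 6 classes of genes, the percent called higher in mature thymic cDC2 (red) or in mature thymic cDC1 (blue), and dashed lines give both for all tested genes. Genes lowered in cDC1 only (35.1%) and opposite genes raised in cDC2 (36.2%) are, of the 6 classes plotted, those most often higher in mature cDC2, where 8.22% of all tested genes are.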

How the data were processed

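RNA of sorted cells was sequenced with a stranded mRNA kit, and per the labels and the study's methods reads were trimmed with Cutadapt, aligned to mm10 with STAR 2.6 and counted on Ensembl genes with HTSeq. The deposited signal is the authors' read count divided by a DESeq2 1.24.0 size factor. Multiplying back gave whole reads for 100% of values within 0.01 reads. Splenic cDC1 replicates 4 and 5 were summed. The 4 immature groups were fitted with limma 3.58.1 (R 4.3.3) on log2(value + 1), for genes with at least 10 in at least 3 samples. The pseudocount understates changes of low genes. Calls needed a log2 difference above 1 and p below 0.1 after Benjamini-Hochberg adjustment. Mature libraries were fitted alone. edgeR 4.0.16 and DESeq2 1.42.0 were run on the recovered reads, and other pseudocounts, filters, scalings, blocks and left-out libraries were tried. On simulated counts of 14045 genes, limma recovered 46% of differences of 1.5 and 98% of 2.5 on the log2 scale, and 36 of its 192 calls were false (edgeR 18 of 175), more than the 10% the adjustment aims at. Named genes were the largest differences of each class with a group mean of at least 100 and no overlap of tissues in the subset called, up to 6 called members of each list, Ngfr and the proteases named by the study. Other genes given with values were chosen after their values were seen. The members and lists were chosen with earlier results of these data known. The labels do not say that replicates came from separate pools of mice, so p-values measure the spread between samples, which may be technical. Of the 976 genes, 275 share exon bases with another gene and are uncertain, since the strand setting of the counting is not given in the sources used here. Coordinates are of GENCODE for mm10, and promoter windows of RefSeq for GRCm38.p6. Some genes are not reported here.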

Additional observations from a re-analysis of the deposited data

Results flagged for a closer look

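The tissue effect differed between the subsets by the interaction term itself at 976 genes, 61 of them called in both subsets with opposite signs. In addition, 14 of 244 tests of single samples in the groups of 4 found a sample far from the rest of its group, where chance gives about 1 in 20.

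In splenic cDC1, replicate 3 held 120 counts of Ptprf (others 39.1 to 42.4) and 65581 of Nr4a1 (30572 to 32721). The others there rest on a few reads: Cxcl3 in replicate 3 (0.924), Gzma and Fcrls in replicate 1 (1.03 each), and, in the summed replicates 4 and 5, Susd4 (0.384), S1pr5 (0.768) and Mmp2 (1.92), each with 0 in the other samples. In thymic cDC1, replicate 3 held 467 counts of Mfsd2a (263 to 287), 0 of Cxcr2 (8.08 to 11.0), 3013 of Tlr3 (4691 to 5064) and 49978 of Fosb (62075 to 64800). Replicate 1 held 92.1 counts of Mmp12 (23.2 to 28.3) and 0.845 of Ccl24 (0 in the others).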

How the results depend on the processing

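The 976 differences numbered 745 to 1157 under edgeR (913), DESeq2 (1108), a fit of all 6 groups (745), lane as a covariate (991), TMM scaling (984), pseudocounts of 0.1 (862) and 8 (1157), no filter (1007) and an adjusted p below 0.05 (788). A stricter filter, 10 counts in every sample, gave 618, 382 of them positive, with 310 cDC2 only, 100 cDC1 only and 31 opposite, and 743 and 1326 tissue effects in cDC1 and cDC2. A log2 difference above 2 gave 516 (381 positive, 135 negative), 264 cDC2 only, 107 cDC1 only and 12 opposite, and 642 and 921 tissue effects. Dropping the log2 threshold gave 129 opposite genes and 2704 and 4423 tissue effects, and a pseudocount of 8 gave 37 opposite genes. Without both libraries that stood apart, chosen after seeing the data, there were 1715 differences (806 negative), 824 cDC2 only and 282 cDC1 only, and of the 116 called named genes Cst3, Ctsa, Cyp26b1, Dll4, Fcgrt, Mmp25 and Tlr6 lost their call. Leaving out 1 sample at a time gave 801 to 1145 differences, 522 to 701 positive and 253 to 487 negative, 407 to 596 cDC2 only, 157 to 221 cDC1 only, 45 to 62 opposite, and 1356 to 1498 and 1946 to 2372 tissue effects. In mature cells it gave 387 to 1650 genes higher in cDC2 and 263 to 693 in cDC1 (468 and 387 higher in cDC2 without mature cDC2 replicates 1 and 2), and a fit of all 6 groups gave 1963 higher in cDC2. Mfsd4 turned sign under edgeR (0.063, adjusted p = 0.82). In the fit of all 6 groups, 22 of the 116 named genes lost their call, among them Ccr2, Cx3cr1, Tlr3 and Mmp12. Leaving out 1 sample at a time cost 2 to 13 of the named calls. Under edgeR 13 were lost, under DESeq2 7 and with a pseudocount of 0.1 14, many of the latter with a group at or near 0. The causes were not tested.

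With the number that opens the library name as a replicate block, 1054 differences were called, and 1172 with the block as a random effect. A fit with 1 sample per group and number gave 961. Deviations of same-numbered samples of both subsets correlated at -0.18 to 0.51 in 8 pairs (mean 0.14), 4 of them over 0.1. Those of differently numbered samples correlated at -0.54 to 0.29 in 16 pairs (mean -0.07), 5 of them over 0.1. Same-numbered pairs lay higher on average but the ranges overlap, so the numbers neither establish nor exclude pairs. Changes of genes with few reads, such as Fabp4 in cDC1, are limited by depth.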

Other observations

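Some groups of genes, noticed after their values were seen, belong to no list above. Beside Cd200r1, other genes of its family were called. Cd200r4 had 9.26, 11.8, 14.8 and 11.5 counts in splenic and 5.07, 12.5, 0 and 0 in thymic cDC1, and 16.5, 20 and 19.6 in splenic and 55.5, 69.6 and 112 in thymic cDC2, with overlap between the tissues in cDC1. Cd200r3 was likewise called in both subsets with opposite signs, with a difference of 3.62 ± 0.97. Cd200r2 had 24.7, 12.8, 3.69 and 25.4 counts in splenic cDC1 and no read in thymic cDC1, and at most 7.79 in cDC2. These genes are similar in sequence, so reads may be shared among them. The ligand gene Cd200 rose in cDC2 only, from 45.8, 63.7 and 60.3 counts to 188, 294 and 273.

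Cd8a, which codes for the CD8 alpha chain that marks splenic cDC1, had 16834, 16442, 15967 and 16347 counts in splenic and 6281, 6675, 8144 and 5341 in thymic cDC1, and 286, 218 and 156 in splenic and 755, 1206 and 1290 in thymic cDC2. The tissues did not overlap in either subset, and the difference was 3.62 ± 0.30 (adjusted p = 1.9e-06, limma). Cd8b1, the beta chain gene, rose in cDC2 only, from 6.41 to 9.78 counts to 75.7 to 103, while cDC1 held 40.1 to 73.0 and 54.1 to 78.8. Cd8b1 is one of the 17 T lineage markers tested, of which 10 were called higher in thymic than in splenic cDC2 and 14 in cDC1. In cDC2 and cDC1, 9.09% and 4.86% of all genes were so called. The part of T lineage RNA in Cd8a or Cd8b1 was not tested. Siglec1, a sialic acid receptor of macrophages, rose in cDC2 from 29.4 to 39.4 to 237 to 418 counts and fell in cDC1 from 2.06 to 21.7 to 0 to 5.07, a change at few reads. Fas, the death receptor, and Blnk, an adaptor of B cell receptor signals, were also called with opposite signs, with differences of 2.93 ± 0.42 and 3.58 ± 0.71.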
